A study of Arabidopsis thaliana with 8 samples.

Results

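Phloem is the plant tissue that carries sugars, amino acids and signals from leaves to growing organs, and the 10 genes described here mark its conducting cells and the cells beside them. They were chosen by locus for roles known from Arabidopsis: the sucrose carriers SUC2, SWEET11 and SWEET12, the proton pump AHA3, the phloem proteins PP2-A1, SEOR1 and SEOR2, the callose synthase CALS7, and the transcription factors APL and NAC086. All 10 were among the 32833 loci listed, and all 10 passed the filter on low counts, which kept 21202 genes. The samples were floral stems of Arabidopsis thaliana Col-0 grown with 16 h of light per day, in 8 libraries. Wild type (WT) plants and plants labelled msh1 each gave a Total and a TRAP group, with 2 replicates in each of these 4 groups. TRAP, translating ribosome affinity purification, recovers the mRNA on ribosomes that contain a tagged ribosomal protein, here FLAG::RPL18 driven by the promoter of MSH1, a gene for an organelle-targeted MutS homologue. Total libraries hold RNA of the whole stem. The promoter is thus that of MSH1 and not of a phloem gene. The msh1 allele, the age of the plants, whether stems were pooled, and whether the Total plants carried the transgene are not stated in the labels.

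In the stem, sucrose leaves phloem parenchyma cells through SWEET11 and SWEET12 and is then taken up from the cell wall space into companion cells by SUC2, which uses the proton gradient that AHA3 builds. Companion cells are joined by plasmodesmata to sieve elements, the conducting cells, which lose their nucleus and most organelles, ribosomes included, as they mature and depend on the companion cells for protein. SEOR1 and SEOR2 form the protein filaments of sieve elements, CALS7 deposits callose at sieve plates, and PP2-A1 is an abundant lectin of phloem sap. APL is needed for phloem identity, and NAC086 acts below it in the removal of the sieve element nucleus.

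The 250 bases upstream of the annotated start of SUC2, SEOR2 and SWEET12 are shown as examples of the genes whose TRAP against Total change differed between genotypes, SUC2 and SEOR2 in one direction and SWEET12 in the other. Capitals mark AAAG, the core bound by DOF transcription factors, several of which act in early phloem, or its reverse complement CTTT. The sequences are from the RefSeq TAIR10.1 assembly, read 5′ to 3′ on the strand of the gene.
SUC2 upstream, chr1:8033157-8033406, minus strand: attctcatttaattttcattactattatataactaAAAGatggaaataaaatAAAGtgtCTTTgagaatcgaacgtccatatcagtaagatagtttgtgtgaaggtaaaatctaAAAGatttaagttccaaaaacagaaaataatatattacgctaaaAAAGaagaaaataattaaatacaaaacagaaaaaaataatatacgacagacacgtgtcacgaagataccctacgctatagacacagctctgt
SEOR2 upstream, chr3:246942-247191, plus strand: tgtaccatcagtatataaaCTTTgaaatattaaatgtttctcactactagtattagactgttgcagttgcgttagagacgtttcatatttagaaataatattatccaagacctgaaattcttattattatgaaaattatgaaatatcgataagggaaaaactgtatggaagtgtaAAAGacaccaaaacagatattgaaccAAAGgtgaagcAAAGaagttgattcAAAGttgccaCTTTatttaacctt
SWEET12 upstream, chr5:7973996-7974245, minus strand: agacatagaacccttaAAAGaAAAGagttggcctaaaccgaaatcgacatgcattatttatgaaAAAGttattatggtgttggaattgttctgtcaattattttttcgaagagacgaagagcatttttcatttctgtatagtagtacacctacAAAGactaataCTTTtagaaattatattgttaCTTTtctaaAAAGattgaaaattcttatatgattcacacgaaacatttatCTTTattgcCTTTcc
SUC2 held 5 matches, SEOR2 6 and SWEET12 9, counted on both strands. All 10 phloem genes held AAAG, as did 98% of 27443 upstream regions of protein-coding genes, with a median of 5.5 matches in the phloem genes and 4 in all. The motif GNATATNC, the element of the APL relative PHR1, was found on either strand in 0 of the 10 windows and in 5.46% of all.

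The libraries held 7568728 to 13611280 gene counts each. Levels are given as CPM, the count per 1000000 of the library's total over genes tested, after TMM scaling (trimmed mean of M values), and a floor of 3 counts is worth 0.207 to 0.385 CPM, counting error only. Counts were tested with edgeR's quasi-likelihood test in 1 fit, with Benjamini-Hochberg adjusted p under 0.05 over all genes tested as the threshold for a call. MSH1 itself was at 9.27 and 9.61 CPM in the WT and 27.9 and 30.8 in the msh1 Total libraries, with TRAP values of 12.3 and 14 in WT and 36.3 and 22.5 in msh1. The libraries labelled msh1 thus held more MSH1 reads than those labelled WT, and the allele is not given, so every genotype direction here follows the labels. RPL18, the gene of the tagged protein, was at 269 to 293 CPM in the WT libraries and at 328 and 344 CPM in msh1 Total, and reached 849 and 1860 CPM in msh1 TRAP. In bulk samples such as these, fewer phloem cells and less of an RNA per cell cannot be told apart.

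All 10 genes had counts in every library, NAC086 in WT TRAP 1 with 1 count and so below the floor of 3, at levels that spanned a wide range (plot of levels by library). Per kilobase of exon in WT Total, the order was SUC2 at 127 ± 2.43 CPM (SD, n = 2), SWEET11 at 73 ± 4.12, AHA3 at 56 ± 1.29, PP2-A1 at 53 ± 2.57 and SWEET12 at 38.3 ± 1.24. SEOR1 at 23.7 ± 2.24 and SEOR2 at 22.7 ± 0.0432 followed and did not differ beyond their spread. APL stood at 5.64 ± 0.0512, CALS7 at 1.58 ± 0.148 and NAC086 at 0.377 ± 0.0526. AHA3 and PP2-A1 differed by little more than their SDs, and, apart from the SEOR pair, the other neighbours in the order lay farther apart than theirs. In msh1 TRAP the order per kilobase was headed by PP2-A1 at 69.1 ± 6.51 CPM and SWEET11 at 57.1 ± 7.67, whose spreads overlapped. SUC2 followed at 43.9 ± 6.45 and SWEET12 at 40.2 ± 6.86, whose spreads overlapped.

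**Figure D1:**
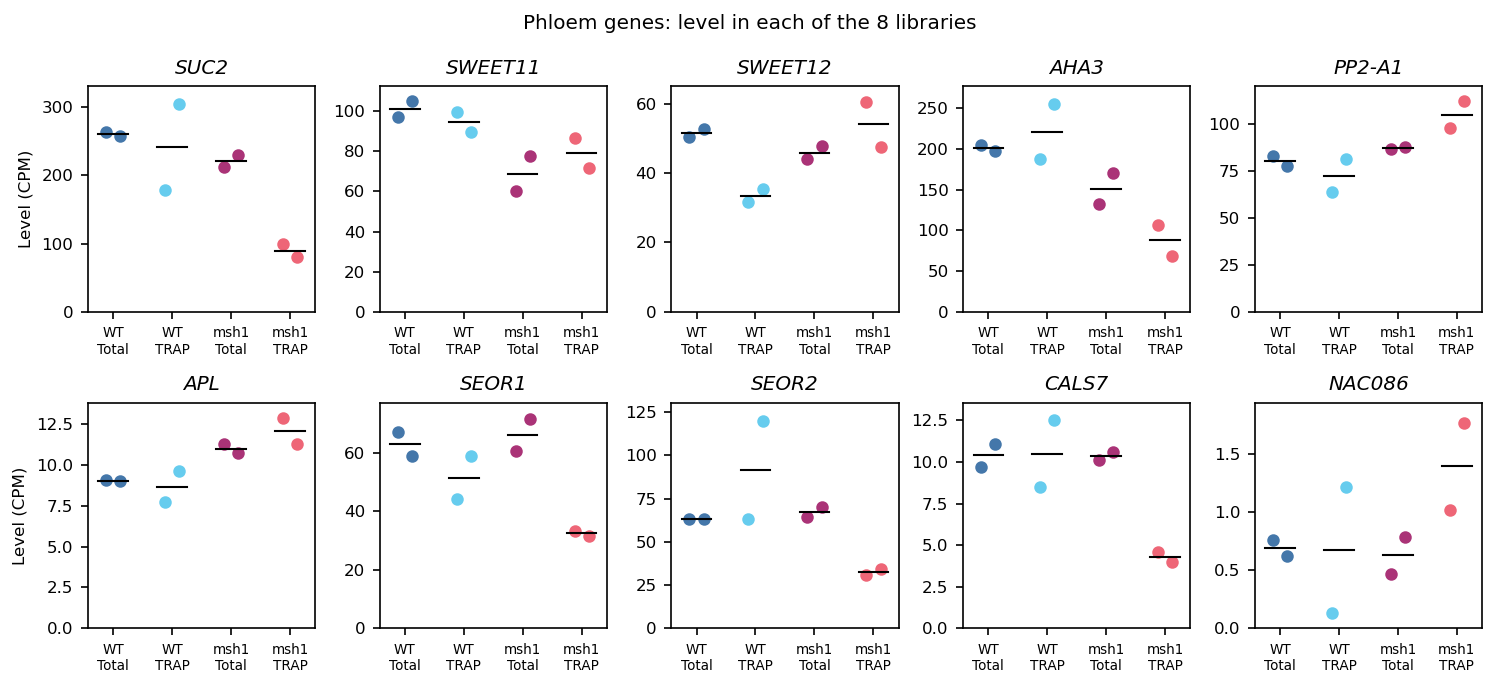
Level of each of the 10 phloem genes (CPM, linear axis from 0) in the 8 libraries, with 1 point per library and a bar at the mean of each group of 2. SUC2, AHA3, SEOR1, SEOR2 and CALS7 were lowest in the 2 msh1 TRAP libraries, with SUC2 at 99.2 and 80.5 CPM there and at 178 to 304 CPM in the other 6.

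Among the genes of sucrose loading, SUC2 (AT1G22710, chromosome 1, 8030587 to 8033156, minus strand) was at 264 and 257 CPM (Total) and 178 and 304 (TRAP) in WT plants, and 212 and 230 (Total) and 99.2 and 80.5 (TRAP) in msh1 plants. Both msh1 TRAP libraries lay below all others, and the WT TRAP libraries lay on either side of WT Total. AHA3 (AT5G57350, chromosome 5, 23230874 to 23236682, minus strand) was at 204.96 and 198.38 CPM in the WT and 132 and 171 in the msh1 Total libraries, with TRAP values of 188 and 255 in WT and 107 and 68.5 in msh1. Its msh1 libraries lay below its WT libraries in both fractions, and lowest in TRAP. SWEET11 (AT3G48740, chromosome 3, 18052466 to 18054832, minus strand) was at 97.3 and 105 CPM (Total) and 99.8 and 89.8 (TRAP) in WT plants, and 60.3 and 77.6 (Total) and 86.8 and 71.7 (TRAP) in msh1 plants, so that every msh1 library lay below every WT library. SWEET12 (AT5G23660, chromosome 5, 7971647 to 7973995, minus strand) was at 50.3 and 52.7 CPM in the WT and 44 and 47.8 in the msh1 Total libraries, with TRAP values of 31.7 and 35.4 in WT and 60.6 and 47.6 in msh1. Here the WT TRAP libraries were the low ones, and the msh1 fractions overlapped.

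Among the sieve element genes, SEOR1 (AT3G01680, chromosome 3, 251868 to 255513, plus strand) was at 67.2 and 58.8 CPM (Total) and 44.1 and 58.8 (TRAP) in WT plants, and 60.6 and 71.6 (Total) and 33.4 and 31.7 (TRAP) in msh1 plants. SEOR2, its neighbour on the chromosome (AT3G01670, chromosome 3, 247192 to 250472, plus strand), was at 63.2 and 63 CPM in the WT and 64.7 and 70.4 in the msh1 Total libraries, with TRAP values of 63.5 and 120 in WT and 31.1 and 34.5 in msh1. Both SEOR genes were lowest in msh1 TRAP without overlap, and the high mean of SEOR2 in WT TRAP rested on 1 library. CALS7 (AT1G06490, chromosome 1, 1978378 to 1989409, plus strand) was at 9.69 and 11.1 CPM (Total) and 8.47 and 12.5 (TRAP) in WT plants, and 10.1 and 10.6 (Total) and 4.59 and 4 (TRAP) in msh1 plants, again with msh1 TRAP below all others.

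PP2-A1 (AT4G19840, chromosome 4, 10773804 to 10775942, plus strand), which is made in companion cells, was at 82.9 and 77.4 CPM in the WT and 86.8 and 87.9 in the msh1 Total libraries, with TRAP values of 63.5 and 81.4 in WT and 97.6 and 112 in msh1. The msh1 libraries were the high ones, and those of msh1 TRAP the highest. PP2-A1 overlaps AT4G19830 on the other strand over 284 bases, 18.76% of its exons. The library preparation does not mark strand, so reads there cannot be told apart, and the neighbour's mean level was 6.26 to 8.88 CPM in the 4 groups. The regulator APL (AT1G79430, chromosome 1, 29877228 to 29879279, minus strand) was at 9.1 and 8.99 CPM (Total) and 7.7 and 9.62 (TRAP) in WT plants, and 11.3 and 10.7 (Total) and 12.9 and 11.3 (TRAP) in msh1 plants, with every msh1 library above every WT library. NAC086 (AT5G17260, chromosome 5, 5675184 to 5678175, minus strand) had 9 and 9 counts in the WT and 5 and 10 in the msh1 Total libraries, with TRAP values of 1 and 12 in WT and 8 and 15 in msh1. At that depth it had the widest error of the 10, and no difference in it was detectable. None of the 10 had a stretch of 100 exon bases repeated exactly elsewhere in the nuclear genome.

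Comparing WT TRAP with WT Total asks whether phloem transcripts were enriched on ribosomes tagged under the MSH1 promoter (plot of changes in the 5 comparisons). Of the 10 genes 0 were called higher and 1 lower, against a background of 5.07% of all genes tested called, 3.41% higher and 1.67% lower. The median log2 fold change was -0.08, and -0.06 over all genes tested. The gene called was SWEET12, which fell 1.53-fold, a log2 fold change of -0.62 ± 0.16 (SE; edgeR adjusted p = 0.0432). The call was lost without either WT Total library, without either WT TRAP library, without either msh1 Total library, with a replicate block (adjusted p = 0.0713) and with the trend with exon length, described further on, removed (0.0925), its adjusted p ranging from 0.0103 to 0.29 over 15 settings. At an unadjusted p under 0.05, 1 gene was higher, SEOR2, at 0.54 ± 0.23 (edgeR adjusted p = 0.204), and DESeq2 called 0 higher. Without WT TRAP 1, SEOR2 was called at 0.92 ± 0.15 (edgeR adjusted p = 0.0108), and without the filter on low counts at 0.53 ± 0.17 (0.0329). For SUC2 the 95% interval of the WT change was -0.58 to 0.36 and for AHA3 -0.34 to 0.61. With 2 libraries a group, changes within these bounds were not excluded.

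**Figure D2:**
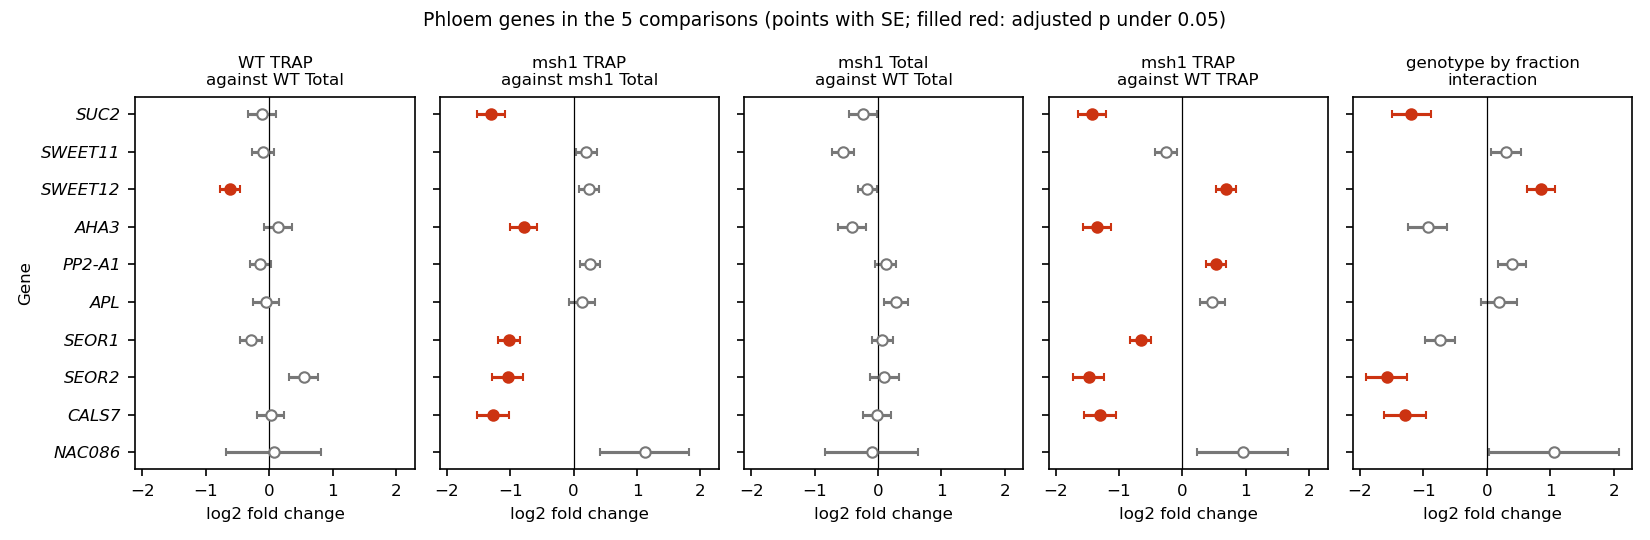
Log2 fold change of each phloem gene in the 5 comparisons, with bars of 1 SE and filled red points for an edgeR adjusted p under 0.05. SWEET12 was the only one of the 10 called in WT TRAP against Total, at -0.62, whereas 5 of the 10 were called lower in msh1 TRAP against Total.

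In the msh1-labelled plants, 5 of the 10 phloem genes were lower in TRAP than in Total and 0 were higher, where 26.2% of all genes tested were called, 12.1% lower and 14.1% higher. At an unadjusted p under 0.05 and by DESeq2, 0 were higher as well. The genes that fell belong to loading and to the sieve element, though the loading genes SWEET11 and SWEET12 were not among them. SUC2 fell 2.46-fold, a log2 fold change of -1.30 ± 0.22 (SE; edgeR adjusted p = 0.00178), and AHA3 1.73-fold (-0.79 ± 0.22, edgeR adjusted p = 0.0208). SEOR1 fell 2.03-fold (-1.02 ± 0.17, edgeR adjusted p = 0.00167), SEOR2 2.06-fold (-1.04 ± 0.24, edgeR adjusted p = 0.00772) and CALS7 2.4-fold (-1.27 ± 0.25, edgeR adjusted p = 0.00375). Both msh1 TRAP libraries lay below both msh1 Total libraries for each of these 5. The others were not called, with SWEET11 at 0.20 ± 0.17, SWEET12 at 0.24 ± 0.16, PP2-A1 at 0.26 ± 0.16, APL at 0.13 ± 0.20 and NAC086 at 1.12 ± 0.70. The median was -0.33, and -0.03 over all genes. Without msh1 Total 2 the count was 3, as AHA3 (adjusted p = 0.176) and SEOR2 (adjusted p = 0.0521) were no longer called, and without msh1 TRAP 2 it was 4, as AHA3 (adjusted p = 0.114) was not. AHA3 was also not called in a fit of the 2 msh1 groups alone (0.0531).

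In Total RNA, 0 of the 10 were called between msh1 and WT, where 3.89% of all genes tested were, 0.821% higher and 3.07% lower. A count of 0 in 10 is near that share and does not show that the levels were equal. At an unadjusted p under 0.05 there was 1, SWEET11, at -0.55 ± 0.17 (SE; edgeR adjusted p = 0.0904), and DESeq2 called 0. The median log2 fold change was -0.06, and 0 over all genes. SWEET11 was called without either msh1 TRAP library, at an adjusted p of 0.0476 or 0.042, and in a fit of the 2 Total groups alone (0.0179), which also called AHA3 (-0.41 ± 0.11, edgeR adjusted p = 0.0446). SUC2 differed by -0.23 with a 95% interval of -0.70 to 0.23, CALS7 by -0.01 (-0.48 to 0.46), SEOR1 by 0.07 (-0.29 to 0.43) and SEOR2 by 0.10 (-0.39 to 0.59). These intervals leave room for modest changes in either direction.

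In TRAP RNA, 7 of the 10 differed between msh1 and WT, 5 lower and 2 higher, where 41.6% of all genes tested were called, 20.8% in each direction. SEOR2 was 2.8-fold lower (-1.48 ± 0.24, edgeR adjusted p = 0.000476), SUC2 2.69-fold lower (-1.43 ± 0.22, edgeR adjusted p = 0.000405) and AHA3 2.53-fold lower (-1.34 ± 0.22, edgeR adjusted p = 0.000598). CALS7 was 2.45-fold lower (-1.30 ± 0.25) and SEOR1 1.59-fold lower (-0.66 ± 0.17). The genes that were higher were SWEET12, 1.61-fold (0.69 ± 0.16, edgeR adjusted p = 0.00449), and PP2-A1, 1.44-fold (0.53 ± 0.16, edgeR adjusted p = 0.0181). Libraries of the 2 groups did not overlap for any of these 7. SUC2, AHA3 and SEOR2 were called in all 15 other settings tried. PP2-A1 lost its call without WT TRAP 1 (adjusted p = 0.117), without msh1 TRAP 2 (0.0916) and in a fit of the 2 TRAP groups alone (0.0764), and SEOR1 without WT TRAP 2 (0.121). This comparison and that of msh1 TRAP with msh1 Total share the msh1 TRAP libraries.

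Whether the TRAP effect differed by genotype was tested by the interaction, the TRAP against Total change in msh1 minus that in WT. It was called for 4 of the 10, 3 lower and 1 higher, where 15.6% of all genes tested were called, 6.61% lower and 9.01% higher. SEOR2 had the largest of these differences, -1.58 ± 0.33 (SE; edgeR adjusted p = 0.00906), and was called in all 14 other settings in which the interaction could be fitted. SUC2 differed by -1.19 ± 0.31 (edgeR adjusted p = 0.0234), CALS7 by -1.29 ± 0.33 (edgeR adjusted p = 0.0238) and SWEET12 by 0.85 ± 0.22 (edgeR adjusted p = 0.0234). SWEET12 thus went the other way, being lower in TRAP in WT and at 0.24 in msh1. AHA3 at -0.93 ± 0.31 (edgeR adjusted p = 0.0614) and SEOR1 at -0.74 ± 0.24 (edgeR adjusted p = 0.0568) did not pass. The median was -0.27, and -0.01 over all genes. The calls of SUC2, CALS7 and SWEET12 were not kept in all of these settings. Over the 14 settings the difference ranged from -1.53 to -0.76 for SUC2, -1.53 to -0.42 for CALS7 and 0.57 to 0.96 for SWEET12. Fewer of all genes tested were called as well when a Total library of either genotype was left out, and more without msh1 TRAP 1. The lost calls are thus not particular to the phloem genes.

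The phloem genes that were lower in msh1 TRAP were also the long ones. The 5 called lower against msh1 Total had 2049 to 6549 nt of exon, and the 5 not called had 1346 to 1833 nt. Length moved with the same comparisons across all genes (plot of change against exon length). In msh1, the median TRAP against Total log2 fold change went from 0.25 for genes under 1000 nt to -0.41 for those of 4000 nt or more, and in WT it went the other way, from -0.23 to 0.25. Among genes of 2000 to 2500 nt, the class of SUC2, the msh1 median was -0.16 and 16% were called lower, and among those of 2500 to 3000 nt, the class of both SEOR genes, -0.22 and 19.9%. For genes of 3000 to 4000 nt, the class of AHA3, it was -0.31 and 24.8%, and for those of 4000 nt or more, with CALS7, -0.41 and 32.2%. In TRAP, msh1 against WT, 25.7, 35.8, 48.9 and 66.9% of these classes were called lower, in that order. With the length trend of each library removed, SUC2 (-1.18 ± 0.20, edgeR adjusted p = 0.00266), SEOR1 (-0.81 ± 0.16, adjusted p = 0.00467), SEOR2 (-0.81 ± 0.23, adjusted p = 0.0277) and CALS7 (-0.81 ± 0.24, adjusted p = 0.0305) stayed lower in msh1 TRAP than in msh1 Total, while AHA3 was at -0.50 ± 0.18 (adjusted p = 0.0714).

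**Figure D3:**
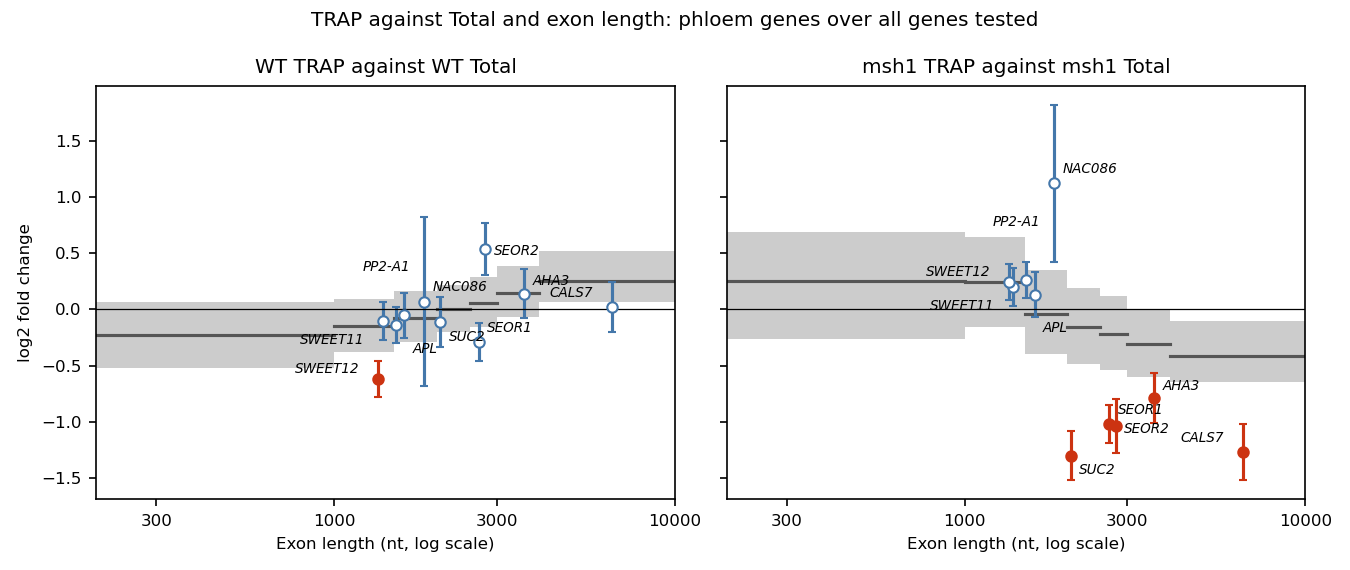
Log2 fold change of TRAP against Total in each genotype against exon length (nt, log scale), with points and 1 SE bars for the phloem genes (filled red: edgeR adjusted p under 0.05) over the median (dark line) and quartiles (grey) of all genes tested in 7 length classes. In msh1, SUC2 at -1.30 and CALS7 at -1.27 lay below the lower quartile of genes of their length.

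The same step moved the genotype differences in both directions, making each of the 7 called in TRAP smaller and that of SWEET11 larger. In TRAP, msh1 against WT, 4 genes were then called, all lower: SUC2 (-1.29 ± 0.21), SEOR2 (-1.11 ± 0.23), AHA3 (-0.81 ± 0.18) and SWEET11, which went from -0.26 to -0.54 ± 0.16 (edgeR adjusted p = 0.0264). SWEET12 at 0.37 ± 0.16 and PP2-A1 at 0.34 ± 0.15 were no longer called higher, and SEOR1 and CALS7, both at -0.34, no longer lower. The interaction kept SUC2 (-1.08 ± 0.28, edgeR adjusted p = 0.0413) and SEOR2 (-1.26 ± 0.32, edgeR adjusted p = 0.0366) and lost CALS7 (-0.42 ± 0.32) and SWEET12 (0.57 ± 0.22).

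Markers of other stem tissues also differed in the same libraries, most of all those of epidermis and cuticle, and their counts are to be read against 12.1% of all genes tested lower and 14.1% higher in msh1 TRAP against Total and 20.8% in each direction in TRAP between genotypes. Summed over the 10 phloem genes, the WT levels were 833 and 849 CPM (Total) and 685 and 967 (TRAP), and the msh1 levels 682 and 778 (Total) and 463 and 534 (TRAP). Of 9 epidermis and cuticle genes, among them the wax genes CER1, CER3 and CER6, 8 were lower in msh1 TRAP than in msh1 Total, with sums of 1590 to 1690 CPM in msh1 Total and 647 to 818 in msh1 TRAP. Of 7 guard cell genes 3 were lower (95.4 to 97.5 against 61.8 to 85.5 CPM), and of 15 xylem genes 3 were lower and 1 higher (832 to 1030 against 701 to 737 CPM). Of 7 cambium genes 2 were higher (231 to 248 against 232 to 250 CPM), and of 8 photosynthesis genes of green stem cells 1 was higher (22500 to 22900 against 23900 to 31300 CPM). No marker of these 5 lists was at 0 in both libraries of a group. In WT, TRAP against Total gave 1 higher and 1 lower xylem gene, 1 lower epidermis gene, 1 higher guard cell gene and none of the cambium or photosynthesis genes. Of all genes tested, 3.41% were higher and 1.67% lower there. In TRAP, msh1 against WT gave 8 of 9 epidermis genes lower (WT TRAP sums of 1530 to 1940 CPM), 7 of 15 xylem genes lower and 1 higher (1560 to 1900 CPM), 3 of 7 guard cell genes lower and 1 higher (105 to 107 CPM), 1 of 7 cambium genes lower and 2 higher (209.26 to 268.27 CPM) and 4 of 8 photosynthesis genes lower and 2 higher (24900 to 29700 CPM). In Total, msh1 against WT gave 0 calls in these 5 lists, where 0.821% of all genes tested were higher and 3.07% lower. The interaction was lower for 4 epidermis, 3 xylem and 1 guard cell genes and higher for 1 cambium and 1 photosynthesis gene. Over all genes tested it was called lower for 6.61% and higher for 9.01%. These shares are of genes of all lengths. All the epidermis genes but PDF1 (1399 nt) had 2255 to 4474 nt of exon, classes in which 25.7 to 66.9% were lower in msh1 TRAP than in WT TRAP. PDF1 was called lower against msh1 Total but not against WT TRAP. The cambium genes called higher, WOX4 and LBD4, had 1443 and 1203 nt. The part of exon length in the marker counts, and of these tissues in the phloem values, was not tested.

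Seed storage and oil body genes set the WT libraries apart. In WT plants they summed to 2090 to 2510 CPM (Total) and 932 to 2030 (TRAP), and in msh1 plants to 114 to 291 (Total) and 41.4 to 57.2 (TRAP). All 9 that were tested, of 11 listed, were lower in msh1 than in WT in both fractions. Of all genes tested, 3.07% were lower in Total and 20.8% in TRAP. EM1 was at 0 in both libraries of each msh1 group. SWEET11 and SWEET12 are also known to supply sucrose to developing seeds, together with SWEET15, and SUC5 is a sucrose carrier of the endosperm. SWEET15 was at 16.4 and 20.8 CPM in WT Total and 1.87 and 4.5 in msh1 Total, a fall of 5.74-fold (-2.52 ± 0.33, edgeR adjusted p = 0.000985). SUC5 was at 9.94 and 7.88 CPM in WT Total and 1.21 and 2.45 in msh1 Total (-2.25 ± 0.45, edgeR adjusted p = 0.015). Both relatives thus fell in Total RNA where SWEET11 and SUC2 were not called, and the part of seed RNA in these values was not tested.

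Relatives outside the phloem list also fell in msh1 TRAP. The broadly expressed proton pumps AHA1 and AHA2 were lower there than in msh1 Total by -0.61 ± 0.18 (edgeR adjusted p = 0.0247) and -0.71 ± 0.20 (edgeR adjusted p = 0.0203), beside -0.79 for AHA3. Neither passed with the length trend removed, AHA1 at -0.25 ± 0.14 (adjusted p = 0.219) and AHA2 at -0.41 ± 0.16 (0.0806), nor in a fit of the 2 msh1 groups alone (0.0667 and 0.0634), nor without msh1 Total 2 (0.161 and 0.164) or msh1 TRAP 2 (0.0898 and 0.0836), and AHA1 did not without msh1 Total 1 (0.0879). In msh1 plants AHA1 was at 658 and 712 CPM in the Total and 518 and 379 in the TRAP libraries. SUC1, a sucrose carrier best known from pollen and roots, was at 123 and 157 CPM in WT TRAP and 95.9 and 80 in msh1 TRAP (-0.68 ± 0.16, edgeR adjusted p = 0.00563), beside -1.43 for SUC2. SWEET14, of the same clade as SWEET11 and SWEET12, was at 0.824 to 4.21 CPM in all libraries and was not called in any of the 5 comparisons. Of these 6 relatives (SUC1, SUC5, SWEET14, SWEET15, AHA1 and AHA2), 0 were called in WT TRAP against Total and 0 in the interaction. Of all genes tested, 5.07% and 15.6% were called there, so 0 of 6 is near the background. Their interaction values were all negative, from -1.74 for SUC5 to -0.35 for SWEET14.

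Of 40 other phloem genes, 39 were tested. In WT TRAP against Total, 4 were higher and 0 lower, where 3.41% of all genes tested were higher and 1.67% lower, with a median of -0.06, equal to that of all genes. They were the amino acid carrier AAP2 (0.66 ± 0.16), the phosphoinositide phosphatase CVP2, which acts in vein continuity (1.09 ± 0.20), SMXL5, which promotes early phloem formation (0.94 ± 0.19), and FTIP1, which helps florigen leave companion cells. FTIP1 was at 18 and 16.7 CPM (Total) and 2950 and 4160 (TRAP) in WT plants, and 14.7 and 16.7 (Total) and 2520 and 3130 (TRAP) in msh1 plants. It rose by 7.68 ± 0.27 on the log2 scale in WT and by 7.49 ± 0.27 in msh1 (edgeR adjusted p = 2.27e-08 and 2.91e-08), and the next of the other phloem genes called were at 1.09 in WT and 1.84 in msh1. Whether reads from the construct add to the count of FTIP1 was not tested, so its value is uncertain, and without it 3 genes were higher in WT. The WT count was 1 without either WT Total library, 2 without WT TRAP 2, and 7 without either msh1 TRAP library.

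**Figure D4:**
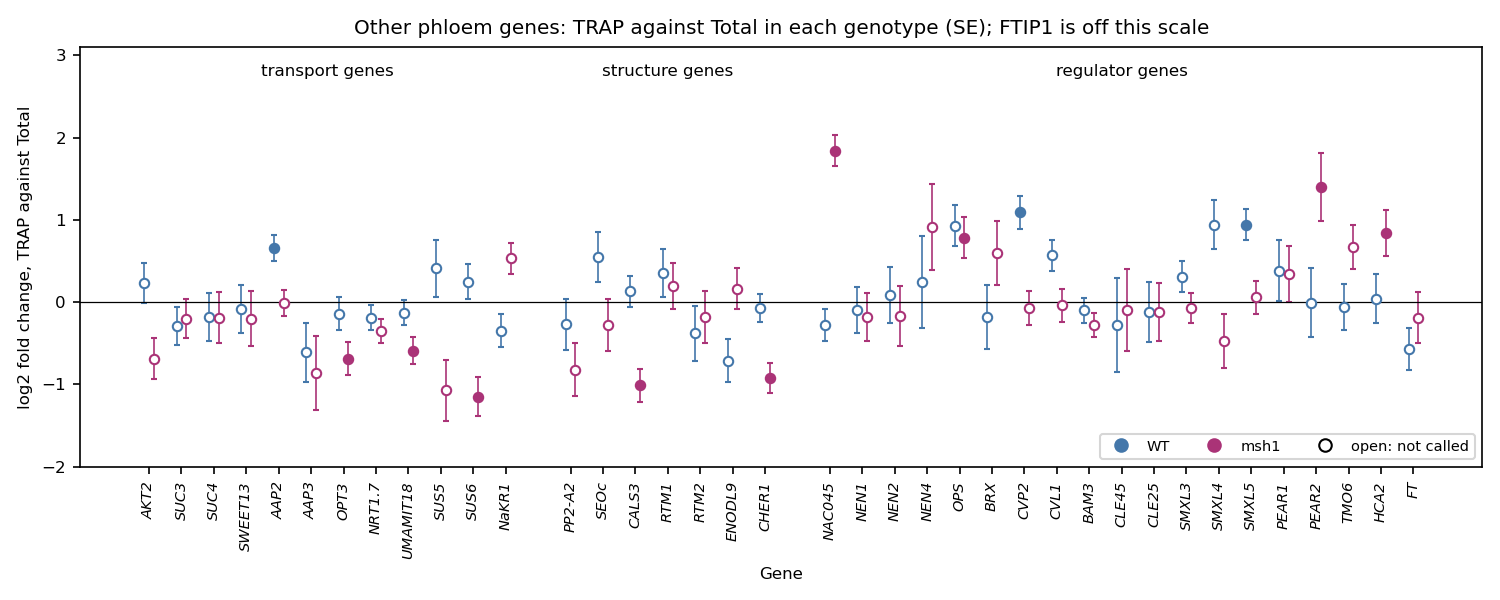
Log2 fold change of TRAP against Total in WT (blue) and msh1 (purple) for 38 of the 39 other phloem genes tested, with bars of 1 SE and filled points for an edgeR adjusted p under 0.05. FTIP1, at 7.68 in WT and 7.49 in msh1, is off the scale. Transport and structure genes called in msh1 lie below 0, and regulators called in msh1 lie above it.

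In msh1 TRAP against Total, 5 of the 39 were higher and 5 lower, with a median of -0.17. As 14.1% of all genes tested were higher and 12.1% lower, these shares were near the background, and the genes are named as a description. Those that fell were transport genes, 3 of 12, and structure genes, 2 of 7: the sucrose synthase SUS6 (-1.15 ± 0.24), the callose synthase of plasmodesmata CALS3 (-1.01 ± 0.20), the choline transporter-like protein CHER1, which acts in sieve plate formation (-0.92 ± 0.18), the oligopeptide and iron carrier OPT3 (-0.69 ± 0.20) and the amino acid exporter UMAMIT18 (-0.59 ± 0.16). Those that rose were regulators, 5 of 20 tested: FTIP1, NAC045, the DOF factors PEAR2 (1.40 ± 0.41) and HCA2 (0.84 ± 0.28), and OPS, which acts in early sieve element formation (0.78 ± 0.25). NAC045, the close relative of NAC086, was at 43.3 and 53.7 CPM in msh1 TRAP, above its 11.3 and 15.7 CPM in msh1 Total (1.84 ± 0.19). It overlaps GSTF11 on the other strand over 934 bases, 33.46% of its exons, and GSTF11 changed by 2.05 in the same comparison, so the value of NAC045 is uncertain. Without FTIP1 and NAC045, 3 of the regulators were higher. The count of 10 was 5 without msh1 Total 1 and 6 without msh1 Total 2.

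Between genotypes in Total RNA, 2 of the 39 differed, both lower in msh1, where 3.07% of all genes tested were lower. FT, the florigen made in companion cells, was at 28.7 and 26.6 CPM in WT Total and 5.69 and 7.34 in msh1 Total (-2.08 ± 0.27, edgeR adjusted p = 0.000814). OPT3 was at 250 and 200 CPM in WT Total and 111 and 127 in msh1 Total (-0.92 ± 0.20, edgeR adjusted p = 0.024). In TRAP RNA, 5 were higher and 12 lower in msh1, where 20.8% of all genes tested were called in each direction, with a median of -0.31 where all genes were at -0.02. The largest falls were of FT (-1.70 ± 0.29), SUS6 (-1.53 ± 0.24), OPT3 (-1.46 ± 0.21), SMXL4, which acts with SMXL5 (-1.38 ± 0.32) and CALS3 (-1.16 ± 0.20), and the largest rises of NAC045 (1.66 ± 0.19), HCA2 (1.07 ± 0.29), the metal-binding companion cell protein NaKR1 (1.06 ± 0.20), the DOF factor TMO6 (0.88 ± 0.28) and the early nodulin-like protein ENODL9 (0.86 ± 0.27). With the length trend removed, 3 of the 39 were higher and 9 lower in this comparison, and their median was -0.09, nearer that of all genes. The interaction was called for 6 of the 39, near the background of 15.6% of all genes tested: 1 higher, NAC045, and 5 lower, SUS6, CVP2, CALS3, SMXL5 and CHER1, and that count ranged from 1 without WT Total 2 or WT TRAP 2 to 13 without msh1 TRAP 1. With the length trend removed it was 2, both higher.

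The phloem genes did not vary as 1 group over the 8 libraries. Pearson's r of log2 CPM with SUC2, over 8 libraries that share groups and scaling, was 0.98 for CALS7, 0.93 for AHA3, 0.92 for SEOR1 and 0.90 for SEOR2. It was 0.32 for SWEET11, -0.33 for SWEET12, -0.33 for NAC086, -0.55 for APL and -0.63 for PP2-A1. CALS7 ranked 21 among 15950 genes of at least 5 CPM, AHA3 531, SEOR1 584 and SEOR2 825. The genes most like SUC2 were MPPalpha, a mitochondrial processing peptidase subunit (0.997), the cytochrome P450 genes CYP96A9 (0.996) and CYP86A4 (0.993), PPC3, a phosphoenolpyruvate carboxylase (0.996), and AT1G76400 (0.992). Of these, CYP86A4 had the largest difference between msh1 TRAP and WT TRAP, at -1.94, and MPPalpha was at -0.68.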

How the data were processed

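TruSeq RNA v2 libraries, which do not mark strand, were sequenced as 100-base paired-end reads, per the labels' protocols. The authors deposited whole-number read counts per locus for each library, unnormalized. TAIR10 and DESeq2 are named in the submitters' processing notes, and for the aligner and counter nothing is given in the sources used here. The 5 lines of each table that name no gene were left out of all fits. Of all listed reads, those in no gene were 38.5 to 41.68% and those without a unique alignment 12.35 to 18.95%.

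Groups were taken from the sample titles. Counts were fitted with edgeR 4.0.16 in R 4.3.3 (filterByExpr, TMM, quasi-likelihood F test, 4 residual degrees of freedom), and p-values were adjusted by Benjamini-Hochberg over all 21202 genes. The procedure was first run on simulated counts with changes in WT TRAP only. Only WT TRAP against WT Total was checked there, so the other comparisons and the length trend were not covered. SEs are the log2 fold change over the root of F. DESeq2 1.42.0, other scaling factors, no filter, fits of 2 groups, a replicate block, removal of the length trend and leaving out each library were alternatives. Exon lengths, overlaps, symbols and sequences are from RefSeq TAIR10.1, matched by locus. Because nothing says whether replicates came from separate plants, p-values measure the spread between these libraries. The 10 genes and all gene lists were chosen with earlier results of these data known. Named beside the 10 were at most 5 other phloem genes per direction and comparison by size of change, relatives of the sugar and proton carriers, and the 5 genes most like SUC2 (Pearson's r of log2 CPM, prior count 2, mean of at least 5 CPM). Of the other lists, markers were named as examples, chosen after their values were seen, and counts were given for each.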

Additional observations from a re-analysis of the deposited data

Results flagged for a closer look

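The TRAP against Total change differed between msh1 and WT, by edgeR's test of the difference itself (adjusted p under 0.05 over all genes), for 4 of the 10 phloem genes and 6 of 39 other phloem genes, where 15.6% of all genes tested were called. Among the 10, the difference in log2 fold change was -1.58 for SEOR2, -1.29 for CALS7, -1.19 for SUC2 and 0.85 for SWEET12. Among the others it was -1.40 for SUS6, -1.17 for CVP2, -1.13 for CALS3, -0.88 for SMXL5, -0.85 for CHER1 and 2.12 for NAC045. The value of NAC045 is uncertain, since GSTF11, which overlaps it on the other strand, had a difference of 2.42.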

How the results depend on the processing

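Of 733 values of the 10 phloem genes under other settings, 678 kept their side of the threshold, 38 lost a call, 17 gained one, and no called value changed sign. Of the 678, 24 that were called in neither fit changed sign. In WT TRAP against Total, the count of called genes was 1 in the fit reported, 2 without the filter on low counts, and 0 with the length trend removed. In msh1 against WT in Total RNA it was 0, and became 1 without the filter and 2 in a fit of the 2 groups alone. With the length trend removed it went from 7 to 4 in msh1 against WT in TRAP, and from 4 to 2 in the interaction. Leaving out 1 library gave 0 to 1 called in WT TRAP against Total, 3 to 5 in msh1 TRAP against Total, 0 to 1 in msh1 against WT Total, 6 to 7 in msh1 against WT TRAP and 1 to 6 in the interaction. The number of calls over all genes tested also moved when a library was left out, so these counts show no dependence particular to the phloem genes. The interaction could not be fitted with only 2 groups. Among the relatives, the msh1 against WT difference of AHA1 in TRAP, -0.63, became 0.06 with the length trend removed, a change of sign.

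With the replicate number as a block the counts were 0, 5, 0, 7 and 4 in that order. Deviations of same-numbered libraries correlated at -0.33 between WT Total and WT TRAP and at -0.3 between msh1 Total and msh1 TRAP. Over the other pairs of groups they correlated at -0.05 to 0.14. Same-numbered Total and TRAP libraries thus did not deviate in the same direction, and a pairing in another order was not tested. Depth limits NAC086, at 1 to 15 counts per library, most.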
